A study of Homo sapiens with 8 samples.

Results

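The TGF-beta, activin and BMP pathway is described here through 50 named genes of the 23686 listed for each library. The members were taken by gene symbol and cover 10 ligands, 12 receptors and co-receptors, 8 SMAD proteins, 4 ID genes, 4 latent TGF-beta binding proteins, 5 secreted antagonists and 7 membrane or intracellular inhibitors. RNA sequencing was done in HS578T and MDA-MB-231, established human lines of triple-negative breast cancer, in control cells and in cells depleted of GPX1, a selenium-containing peroxidase that reduces hydrogen peroxide. The 4 groups are the HS578T control, HS578T siGpx1, MDA-MB-231 control and MDA-MB-231 siGpx1 cells, with 2 libraries in each. The depleted samples are called siGpx1 in their titles and Gpx1-/- in their genotype label, and siGpx1 is used here. The source labels give each library of a line a different line name, counting upward by 1 from HS578T and from MDA-MB-231, while the titles and the cell line label give 1 name per line, which is the one followed. The sources used here do not give the control agent, the number of siRNAs or the time between depletion and harvest. Each line is an established tumour line, so a difference between the lines rests on a single line of each kind. Nothing in the labels says that the 2 libraries of a group came from separate cultures, so the p-values cover the variation among these libraries alone, part or all of which may be technical.

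Ligands of this family are secreted dimers that bind a type II receptor, which then activates a type I receptor. TGF-beta and activin receptors phosphorylate SMAD2 and SMAD3, BMP receptors phosphorylate SMAD1, SMAD5 and SMAD9, and both classes join SMAD4 and enter the nucleus. SMAD6, SMAD7 and BAMBI are inhibitors that the pathway itself induces, and the ID genes are classical BMP targets. In breast cancer the pathway is known both for restraining growth early and for favouring a mesenchymal state and spread in late disease.

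Each library held 12905808 to 14216365 estimated counts, and 15573 to 15805 genes had a count above 0. GPX1 stood at 84.0 and 84.2 CPM (counts per 1e6 of the library, scaled by TMM factors) in the HS578T controls and at 3.57 and 3.42 CPM in the siGpx1 libraries. In MDA-MB-231 it stood at 194 and 209 CPM in the controls and at 7.28 and 6.78 CPM after depletion, so the targeted gene followed the labels in all 8 libraries. The samples are labelled epithelial. Of 14 epithelial markers, 6 exceeded 1 CPM in either HS578T group, and the defining markers EPCAM and CDH1 had 0 to 3 counts in any HS578T library. In MDA-MB-231 8 of the 14 exceeded that level in the controls and 9 after depletion, with EPCAM at 20.4 and 24.8 CPM and CDH1 at 0.815 and 1.77 CPM on average. The summed epithelial level was 313 to 327 CPM in HS578T controls and 757 to 795 CPM after depletion, and 1603 to 1626 CPM and 2326 to 2392 CPM in MDA-MB-231. The 12 mesenchymal markers summed to 70216 to 70840 CPM in HS578T controls, 82362 to 92527 CPM after depletion, 2521 to 2533 CPM in MDA-MB-231 controls and 3155 to 3178 CPM after depletion. Both sums moved with depletion, and their part in the results below was not tested. In HS578T most of each rise came from 1 gene, with KRT18 at 190 and 583 CPM and FN1 at 38073 and 51431 CPM on average before and after depletion, while the mesenchymal markers THY1 (927 and 388 CPM) and ACTA2 (215 and 102 CPM) were lower after it. In bulk RNA, fewer cells of a type and less RNA per cell cannot be told apart. Of 7 leukocyte markers 2 exceeded 1 CPM in any group (CD14 and CD68), and of 6 endothelial markers 1 or 2 did. ERBB2 stood at 61.3 to 76.3 CPM in the group means, PGR at 3.33 and 4.38 CPM in HS578T, and ESR1 had at most 3 counts in a library.

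After GPX1 depletion the pathway changed at several levels at once in both lines. TGFBR1, the type I receptor for TGF-beta, rose 2.96-fold in HS578T and 2.43-fold in MDA-MB-231, while BMPR2, the type II receptor for BMPs, fell by 0.80 and 0.75 on the log2 scale. The feedback inhibitors SMAD7 and BAMBI rose in both lines, and the activin antagonist FST fell in both. Of the 50 members, 45 passed the filter on low counts in both lines, ENG passed in HS578T alone and NOG in MDA-MB-231 alone. BMP7, ID4 and GREM1 had at most 2 counts in any library and were not tested.

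In HS578T, 20 of the 47 tested members (42.6%) rose and 9 (19.1%) fell by edgeR's quasi-likelihood test at a Benjamini-Hochberg adjusted p under 0.05, against 28.6% and 22.1% of all 14249 tested genes. The median log2 change was 0.13 over the members and 0.04 over all genes. With limma on log2(TPM + 1) the median of all genes was 0, and 15 members were higher and 11 lower. With at least 5 CPM in 2 libraries that median was also 0, with 17 members higher and 11 lower. Of the calls in these 2 settings, 57.7% and 60.7% were higher among the members, against 48.6% and 49.3% among all genes. In the main fit the shares were 69% and 56.4%. DESeq2 called 16 members higher and 7 lower. In MDA-MB-231, 16 members (34.0%) rose and 14 (29.8%) fell, against 20.7% and 21.9% of all genes, with medians of 0.07 and 0. Changes of at least 1.5-fold were called higher in 7 members (14.9%) and lower in 3 (6.38%) in HS578T, against 8.41% and 9.21% of all genes. In MDA-MB-231 they were called higher in 5 members and lower in 5 (10.6% each), against 4.07% and 7.75% of all genes. In both lines 11 members rose (23.4%, against 14.9% of all genes), 5 fell (10.6%, against 14.3%) and 5 went in opposite directions (10.6%, against 1.54%). The 5 with opposite calls were TGFB1, TGFB2, ACVR1B, TGFBR2 and TGFBR3. Each lost the call of 1 line in 2 to 5 of 15 alternative settings. Of the 11 higher in both lines, INHBB, SMAD4 and FSTL1 lost the HS578T call in 7 of 14, 13 of 15 and 7 of 15 settings. INHBB also lost the MDA-MB-231 call in 4 of 14 settings, and SMAD4 in 2 of 15. Of the 5 lower in both lines, SMAD6 lost the HS578T call in 1 of 15 settings and the MDA-MB-231 call in 4 of 15. The rest of the members called the same way in both lines kept both calls in every setting. The number of lower members in MDA-MB-231 was 9 by DESeq2, 8 without siGpx1 replicate 1 of that line and 9 without its replicate 2.

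**Figure D1:**
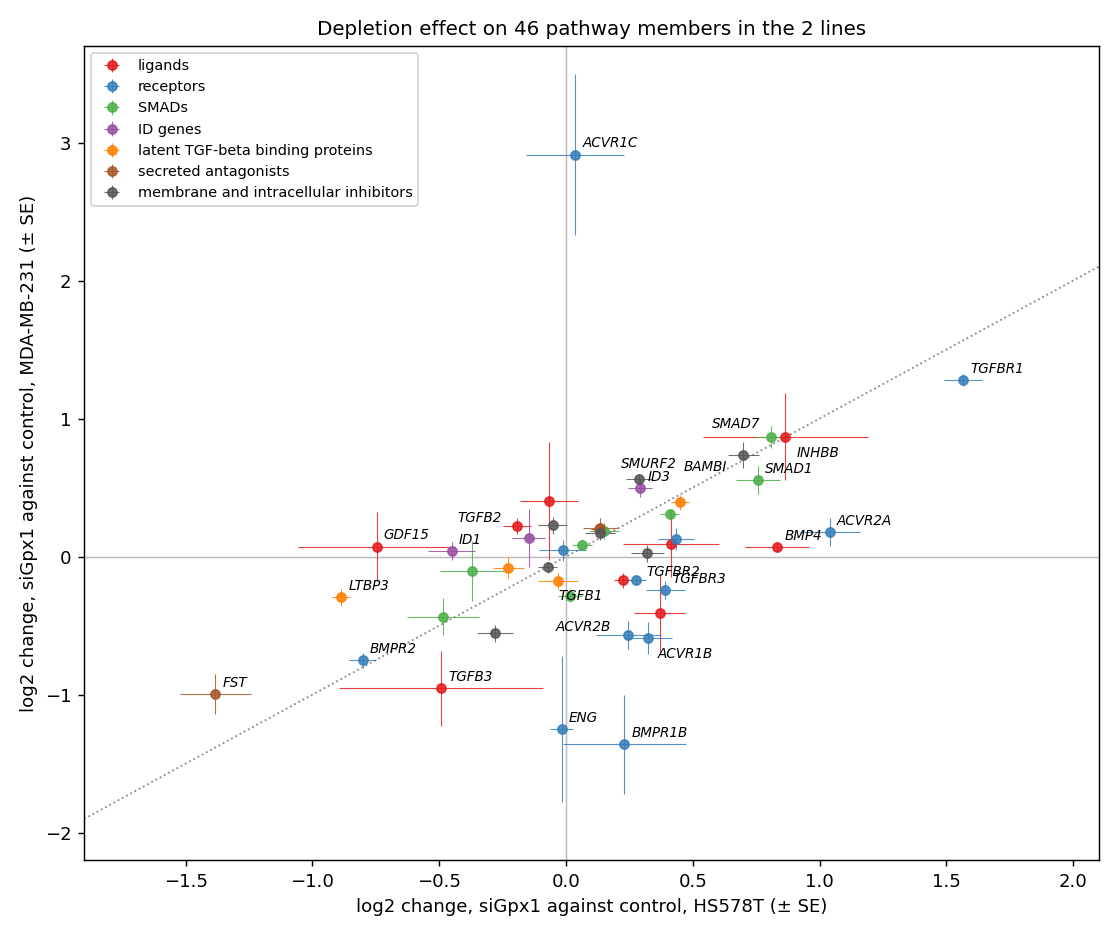
Log2 change after GPX1 depletion in HS578T (x axis) and MDA-MB-231 (y axis) for 46 tested members, with standard errors as bars and colours by role; NOG, at 0 counts in HS578T, is left out, and the dotted line marks equal changes. TGFBR1 lies at 1.57 and 1.28, FST at -1.38 and -0.996 and BMPR2 at -0.80 and -0.75, and ACVR1C and BMPR1B, both near or under 1 CPM in MDA-MB-231, lie far from the line.

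Among the ligands, INHBB and TGFB3 were low, and BMP4 stood at very different levels in the lines. BMP4, a ligand of the BMP receptors, stood at 4.44 and 4.70 CPM in the HS578T controls and at 8.33 and 7.98 CPM after depletion. In MDA-MB-231 the control libraries held 214 and 221 CPM and the depleted ones 227 and 229 CPM. BMP4 was thus higher in both depleted HS578T libraries than in both controls, at a level far below that of MDA-MB-231. The change was 0.83 ± 0.13 on the log2 scale (SE, edgeR adjusted p = 4.51e-05) in HS578T and 0.07 ± 0.04 (edgeR adjusted p = 0.143) in MDA-MB-231. INHBB, the activin beta B subunit, had 2.11 and 1.49 CPM in HS578T controls and 4.08 and 2.52 CPM after depletion. The MDA-MB-231 values were 1.25 and 2.07 CPM in the controls and 3.44 and 2.64 CPM in the depleted libraries. The groups did not overlap in either line, but the replicates were far apart. The log2 change of INHBB was 0.86 ± 0.33 and 0.87 ± 0.32 (edgeR adjusted p = 0.0371 in each line). Both calls were lost by DESeq2 (0.85 in HS578T and 0.91 in MDA-MB-231) and by limma on log2(TPM + 1) (0.52 and 0.58). The HS578T call was also lost with that line fitted alone (0.81). Both depended on single libraries as well. In HS578T the log2 change was 0.63 without control replicate 2 and 0.47 without siGpx1 replicate 1, and 0.82 without either MDA-MB-231 siGpx1 library, and none of these passed. In MDA-MB-231 it was 0.60 without control replicate 1 and 0.71 without siGpx1 replicate 1, neither of which passed, and 1.33 without control replicate 2, which passed.

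TGFB3, the least abundant of the 3 TGF-beta ligands in both lines by TPM (transcripts per 1e6, a length-scaled level), had 3.23 and 2.98 CPM in MDA-MB-231 controls and 1.42 and 1.79 CPM after depletion. Both depleted libraries lay below both controls. The log2 change was -0.96 ± 0.27 (edgeR adjusted p = 0.0103). That call was lost by DESeq2 (-0.92), without control replicate 1 (-0.85) and without siGpx1 replicate 1 (-0.75). In HS578T TGFB3 had 0.903 and 1.33 CPM in controls and 0.595 and 0.977 CPM after depletion, with overlapping groups. TGFB1 and TGFB2, the ligands most studied in cancer, changed less and in opposite directions. TGFB1 had 206 and 205 CPM in HS578T controls and 242 and 239 CPM after depletion, and 54.2 and 58.6 CPM against 49.8 and 50.3 CPM in MDA-MB-231. It was higher in depleted HS578T cells by 0.23 ± 0.04 (edgeR adjusted p = 0.000143) and lower in depleted MDA-MB-231 cells, with a log2 change of -0.17 ± 0.05 (edgeR adjusted p = 0.0133). The second call was lost by DESeq2 (-0.14) and without MDA-MB-231 control replicate 2 (-0.06) or either siGpx1 library of that line (-0.12 and -0.13). It was lost too with at least 5 CPM in 2 libraries (-0.12). TGFB2 had 260 and 250 CPM in HS578T controls and 241 and 205 CPM after depletion, and 163 and 162 CPM against 187 and 193 CPM in MDA-MB-231. TGFB2 changed by -0.19 ± 0.06 in HS578T (edgeR adjusted p = 0.00893) and 0.22 ± 0.06 in MDA-MB-231 (edgeR adjusted p = 0.00506). The HS578T value was -0.17 without control replicate 1 and -0.09 without siGpx1 replicate 2, neither of which passed, and -0.32 without siGpx1 replicate 1, which passed.

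INHBA, the activin beta A subunit, had 21.6 and 25.2 CPM in HS578T controls and 32.8 and 27.6 CPM after depletion, a log2 change of 0.37 ± 0.10 (edgeR adjusted p = 0.00625). That call was lost by DESeq2 (0.35), without control replicate 1 (0.25) and without siGpx1 replicate 1 (0.23). Limma on log2(TPM + 1) lost that call as well (0.30). In MDA-MB-231 INHBA was at 1.36 to 2.07 CPM in all 4 libraries. BMP2, BMP6 and GDF15, a stress-responsive and distant member of the family, passed in neither line. GDF15 had 2.71 and 4.16 CPM in HS578T controls and 1.53 and 2.52 CPM after depletion, a log2 change of -0.75 ± 0.31 (edgeR adjusted p = 0.0556).

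The receptors held the largest change among the well-measured members. TGFBR1 had 17.8 and 15.6 CPM in HS578T controls and 49.1 and 49.8 CPM after depletion. In MDA-MB-231 it had 93.0 and 92.5 CPM in controls and 219 and 231 CPM after depletion. Every depleted library lay above every control of its line, and the depleted HS578T cells still lay below the MDA-MB-231 controls. TGFBR1 rose by 1.57 ± 0.07 on the log2 scale in HS578T (edgeR adjusted p = 9.72e-11) and 1.28 ± 0.05 in MDA-MB-231 (edgeR adjusted p = 6.52e-12). BMPR2 had 171 and 162 CPM in HS578T controls and 102 and 89.4 CPM after depletion, and 162 and 158 CPM against 96.7 and 93.5 CPM in MDA-MB-231. The control levels were alike in the lines and so were the depleted levels. BMPR2 fell with log2 changes of -0.80 ± 0.05 (edgeR adjusted p = 5.71e-09) and -0.75 ± 0.05 (edgeR adjusted p = 1.28e-08), and the difference between the lines was 0.05 ± 0.08 (edgeR adjusted p = 0.733).

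ACVR2A, a type II receptor shared by activins and some BMPs, had 7.75 and 7.45 CPM in HS578T controls and 15.5 and 15.8 CPM after depletion. In MDA-MB-231 the values were 14.6 and 12.6 CPM in controls and 16.1 and 14.7 CPM after depletion. The depleted HS578T libraries thus lay within the range of the MDA-MB-231 libraries, whose groups were close to each other. The log2 change was 1.04 ± 0.12 in HS578T (edgeR adjusted p = 2.29e-06) and 0.18 ± 0.10 in MDA-MB-231 (edgeR adjusted p = 0.172). ACVR1B, the main type I receptor for activins, had 23.5 and 25.9 CPM in HS578T controls and 29.2 and 32.6 CPM after depletion, and 16.7 and 16.5 CPM against 9.71 and 12.4 CPM in MDA-MB-231. It moved in opposite directions, with log2 changes of 0.32 ± 0.10 (edgeR adjusted p = 0.00969) and -0.59 ± 0.12 (edgeR adjusted p = 0.000624). The HS578T call was lost by DESeq2 (0.30) and without control replicate 1 (0.24) or siGpx1 replicate 2 (0.23). Limma on log2(TPM + 1) lost it as well (0.26). The MDA-MB-231 change was -0.37 without siGpx1 replicate 1, and it passed there.

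TGFBR2, the type II receptor for TGF-beta, and TGFBR3, the co-receptor betaglycan, were also higher after depletion in HS578T and lower in MDA-MB-231. TGFBR2 had 223 and 209 CPM in HS578T controls and 260 and 263 CPM after depletion, and 452 and 439 CPM against 389 and 404 CPM in MDA-MB-231. On the log2 scale TGFBR2 changed by 0.28 ± 0.04 (edgeR adjusted p = 4.04e-05) and -0.17 ± 0.04 (edgeR adjusted p = 0.00201). TGFBR3 had 29.8 and 25.9 CPM in HS578T controls and 36.6 and 36.6 CPM after depletion, and 57.2 and 60.5 CPM against 49.5 and 49.9 CPM in MDA-MB-231. On the log2 scale TGFBR3 changed by 0.39 ± 0.08 (edgeR adjusted p = 0.000555) and -0.24 ± 0.06 (edgeR adjusted p = 0.00649). In each line the groups of both genes were apart, by an amount small beside their level. The MDA-MB-231 call of TGFBR2 was lost without control replicate 1 (-0.10) or siGpx1 replicate 1 (-0.09). The MDA-MB-231 call of TGFBR3 ended when control replicate 2 (-0.15) or either siGpx1 library (-0.19 and -0.20) was left out. It was also lost by DESeq2 (-0.21) and by limma on log2(TPM + 1) (-0.22).

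ACVR2B, the other type II activin receptor, fell in MDA-MB-231 from 16.5 and 16.8 CPM to 10.4 and 12.1 CPM. Its log2 change there was -0.57 ± 0.10 (edgeR adjusted p = 0.000297), against 0.25 ± 0.13 in HS578T (edgeR adjusted p = 0.136). The files also list an antisense gene, ACVR2B-AS1, with 7 to 17 counts per library, whose reads could not be told apart from those of ACVR2B without strand. ACVR1, a type I receptor for BMPs, rose in HS578T from 40.1 and 36.5 CPM to 52.0 and 51.5 CPM, a log2 change of 0.43 ± 0.07 (edgeR adjusted p = 9.27e-05). BMPR1A, the most widely expressed BMP type I receptor, passed in neither line, with log2 changes of -0.01 ± 0.09 and 0.04 ± 0.08. BMPR1B had 1.45 and 1.43 CPM in MDA-MB-231 controls and 0.674 and 0.428 CPM after depletion, a log2 change of -1.36 ± 0.36 (edgeR adjusted p = 0.0059), lost without siGpx1 replicate 2 (-1.03). ACVR1C, a type I receptor for activins and nodal, had 3 counts in the MDA-MB-231 controls and 23 after depletion. That is a ratio of 8.14 with a 95% counting interval of 2.46 to 42.3, which covers counting error only. EdgeR's test passed (adjusted p = 0.000767), and limma on log2(TPM + 1) did not (adjusted p = 0.0832). In HS578T ACVR1C had 5.34 to 6.46 CPM in all 4 libraries and its groups overlapped. ENG, the co-receptor endoglin, had 150 to 158 CPM in HS578T in every library, and 13 counts in MDA-MB-231 controls against 5 after depletion. It passed in neither line.

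**Figure D2:**
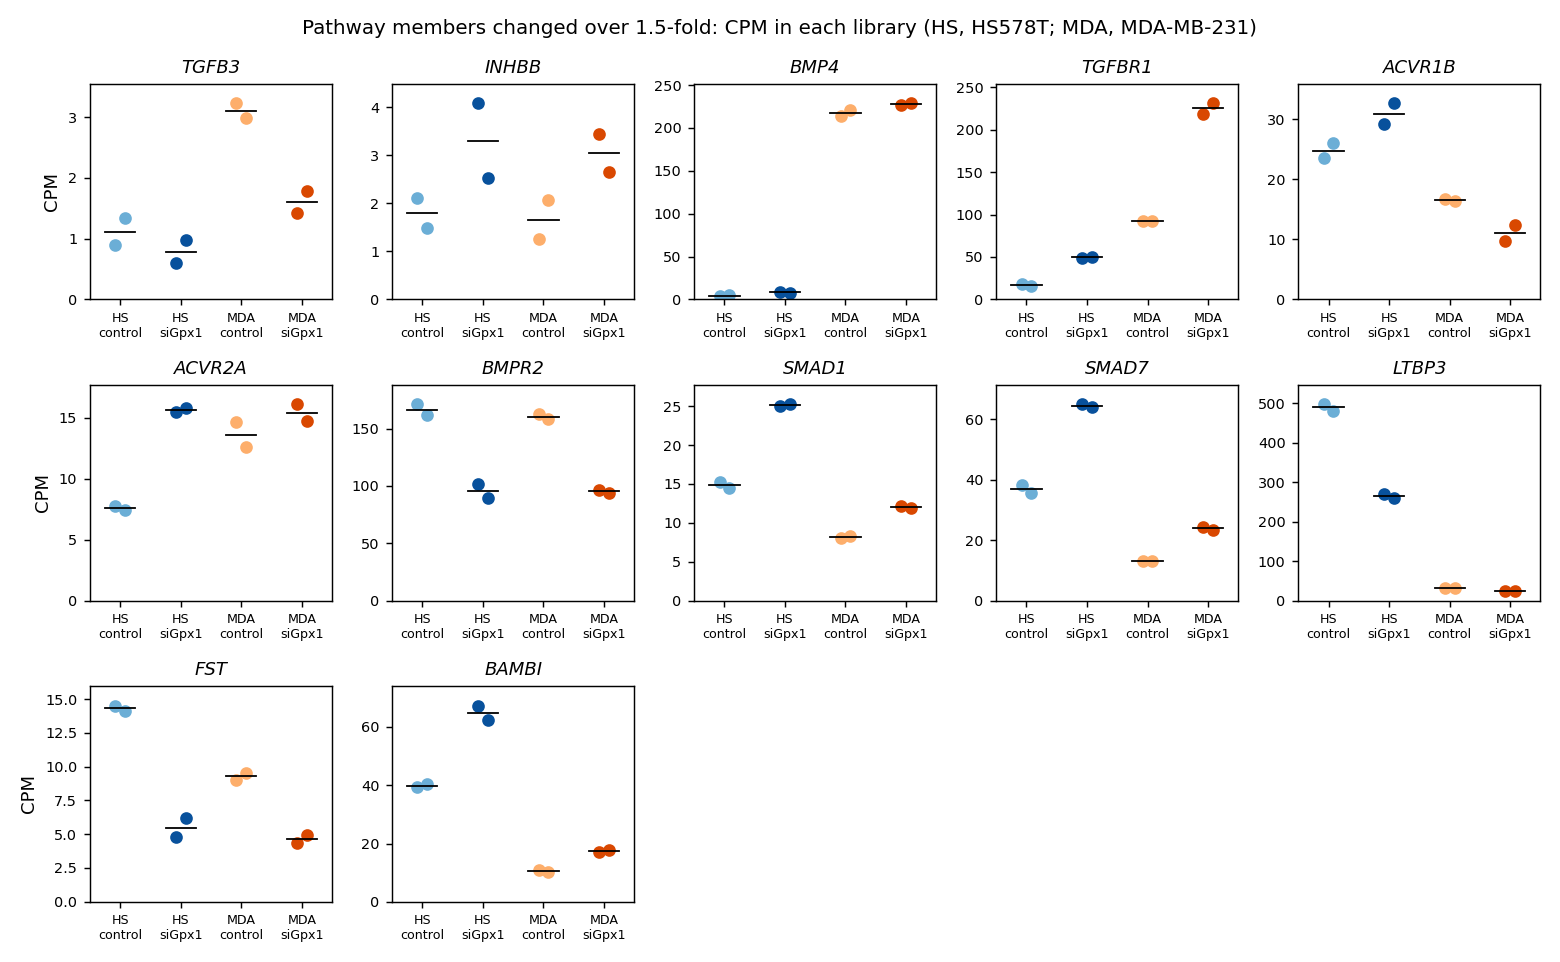
CPM in each library (points; bars are group means of 2 libraries) for the 12 members that passed with at least a 1.5-fold change and at least 1 CPM in a line. TGFBR1, SMAD7 and BAMBI are higher and BMPR2 and FST lower after depletion in both lines, while BMP4, ACVR2A and LTBP3 change mainly in HS578T and the replicates of INHBB lie far apart.

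Of the 8 SMADs, 4 rose and 2 fell in each line, against 28.6% and 22.1% of all genes for HS578T, or 20.7% and 21.9% for the other line. SMAD7, which blocks type I receptors and recruits ubiquitin ligases to them, had 38.1 and 35.4 CPM in HS578T controls and 64.9 and 64.0 CPM after depletion. In MDA-MB-231 it had 13.2 and 12.96 CPM in controls and 24.3 and 23.5 CPM after depletion. SMAD7 was higher in every depleted library of each line. SMAD7 rose by 0.81 ± 0.06 (edgeR adjusted p = 1.93e-08) and 0.87 ± 0.08 (edgeR adjusted p = 3.09e-07). SMAD6, the inhibitory SMAD that acts mainly on BMP signalling, went the other way. It had 9.10 and 8.94 CPM in HS578T controls and 6.29 and 6.59 CPM after depletion, and 8.04 and 9.59 CPM against 6.54 and 6.50 CPM in MDA-MB-231. The log2 change of SMAD6 was -0.48 ± 0.14 (edgeR adjusted p = 0.01) and -0.44 ± 0.14 (edgeR adjusted p = 0.0164). The MDA-MB-231 call ended when control replicate 2 (-0.25) or either siGpx1 library (-0.39 and -0.38) was left out, and both calls were lost by DESeq2.

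Among the BMP SMADs, SMAD1 had 15.3 and 14.4 CPM in HS578T controls and 25 and 25.2 CPM after depletion, and 8.04 and 8.36 CPM against 12.2 and 11.9 CPM in MDA-MB-231. SMAD1 rose by 0.76 ± 0.09 (edgeR adjusted p = 2.3e-06) and 0.56 ± 0.10 (edgeR adjusted p = 0.000385). SMAD5, the most abundant of the 3 BMP SMADs by TPM, had 145 and 145 CPM in HS578T controls and 192 and 192 CPM after depletion, and 127 and 127 CPM against 155 and 160 CPM in MDA-MB-231. It rose by 0.41 ± 0.04 (edgeR adjusted p = 2.02e-07) and 0.31 ± 0.04 (edgeR adjusted p = 6.54e-06). The third BMP SMAD, SMAD9, fell in HS578T, from 21.6 and 18.5 CPM to 16.4 and 14.6 CPM. Its log2 change was -0.37 ± 0.13 (edgeR adjusted p = 0.0243), lost without control replicate 1 (-0.26) or siGpx1 replicate 2 (-0.30). DESeq2 (-0.39) and limma on log2(TPM + 1) (-0.37) lost the SMAD9 call as well. The TGF-beta and activin SMADs changed less. SMAD3 passed in neither line, with log2 changes of 0.06 ± 0.04 and 0.09 ± 0.04, and SMAD2 fell in MDA-MB-231 from 84.7 and 85.3 CPM to 70.5 and 69.2 CPM (-0.28 ± 0.05, edgeR adjusted p = 0.000188). In HS578T the log2 change of SMAD2 was 0.02 ± 0.05 (edgeR adjusted p = 0.804). SMAD4, the partner of both branches, had 81.4 and 79.1 CPM in HS578T controls and 93.5 and 84.9 CPM after depletion. In MDA-MB-231 it had 54.1 and 53.7 CPM in controls and 62.2 and 60.5 CPM after depletion. Its log2 change was 0.15 ± 0.06 in HS578T (edgeR adjusted p = 0.0378) and 0.19 ± 0.06 in MDA-MB-231 (edgeR adjusted p = 0.0204). The first of these calls was lost in 13 of 15 alternative settings, 7 of which left out a library, with log2 changes of 0.07 to 0.21 over all 15. The second was lost without siGpx1 replicate 1 (0.22). Limma on log2(TPM + 1) lost it too (0.18).

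The promoters of SMAD7, BAMBI and SMAD6 are shown because these 3 genes are induced by the pathway as feedback inhibitors and did not move together here. Windows run from 250 bases before to 50 bases after a RefSeq transcription start (GRCh38.p14), and capitals mark matches to GTCTAGAC, a palindrome bound by SMAD complexes, or to CAGAC, the short SMAD box, on either strand (GTCTG on the other strand). GTCTAGAC holds no CAGAC or GTCTG, so a match to it is not counted as a match to CAGAC. SMAD7 has 3 windows, with 2, 1 and 0 CAGAC matches, and the most upstream is shown, on the minus strand at chr18:48950916-48951215, with 2 CAGAC matches and 0 GTCTAGAC matches. The window of BAMBI, on the plus strand at chr10:28677271-28677570, holds 2 CAGAC or GTCTG matches. The window of SMAD6, on the plus strand at chr15:66701986-66702285, holds GTCTAGAC with its first base 12 bases before the start and no CAGAC.
SMAD7: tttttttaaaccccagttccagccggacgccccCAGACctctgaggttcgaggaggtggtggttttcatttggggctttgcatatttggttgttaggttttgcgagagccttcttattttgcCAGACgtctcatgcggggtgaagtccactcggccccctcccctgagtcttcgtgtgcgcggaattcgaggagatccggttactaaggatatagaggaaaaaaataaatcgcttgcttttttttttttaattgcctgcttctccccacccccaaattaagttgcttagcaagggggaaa
BAMBI: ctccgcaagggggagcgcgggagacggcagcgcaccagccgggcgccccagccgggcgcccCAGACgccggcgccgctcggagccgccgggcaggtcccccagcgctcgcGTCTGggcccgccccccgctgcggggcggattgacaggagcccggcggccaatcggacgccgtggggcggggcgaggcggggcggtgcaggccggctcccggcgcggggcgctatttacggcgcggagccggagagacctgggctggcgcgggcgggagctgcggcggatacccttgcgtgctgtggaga
SMAD6: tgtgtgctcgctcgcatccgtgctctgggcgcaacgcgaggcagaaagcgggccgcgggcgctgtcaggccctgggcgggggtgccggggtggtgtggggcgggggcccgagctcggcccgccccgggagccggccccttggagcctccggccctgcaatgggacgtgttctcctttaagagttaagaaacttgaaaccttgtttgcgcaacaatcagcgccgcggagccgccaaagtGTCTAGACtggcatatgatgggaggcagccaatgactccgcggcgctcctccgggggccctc
Promoter windows were found for 46 of the 50 members, 88 windows in all, since several genes have more than 1 start. GTCTAGAC occurred in 1 of the 88 windows, that of SMAD6, and in 0.202% of 35116 windows of all genes. CAGAC occurred in 46 of the 88 (52.3%) and in 45.3% of all windows. GGCGCC, a GC-rich letter run searched as the BMP counterpart, occurred in 21 of the 88 (23.9%) and in 19.2% of all windows. A match describes the letters and is not a binding site shown in these cells. Only these windows were searched, so 0 matches in them does not mean that SMAD7 or another gene lacks the sequence further from its start.

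The ID genes, which code for inhibitors of basic helix-loop-helix factors, did not move as a group. ID3 had 226 and 215 CPM in HS578T controls and 257 and 283 CPM after depletion, and 46.3 and 50.5 CPM against 67.5 and 68.8 CPM in MDA-MB-231. ID3 rose by 0.29 ± 0.05 (edgeR adjusted p = 8.88e-05) and 0.49 ± 0.06 (edgeR adjusted p = 1.16e-05). ID1 had 54.6 and 53.6 CPM in HS578T controls and 34.5 and 44.5 CPM after depletion, against 171 to 190 CPM over all 4 MDA-MB-231 libraries. ID1 was thus lower in both depleted HS578T libraries, which differed from each other, and overlapped in MDA-MB-231. The log2 change of ID1 was -0.45 ± 0.09 in HS578T (edgeR adjusted p = 0.000745), or -0.29 without siGpx1 replicate 1, and 0.04 ± 0.06 in MDA-MB-231 (edgeR adjusted p = 0.671). ID2 had 46.9 and 49.9 CPM in HS578T controls and 44.5 and 42.9 CPM after depletion, and 1.84 to 2.09 CPM in MDA-MB-231. It passed in neither line, with log2 changes of -0.15 ± 0.06 and 0.13 ± 0.21. ID4 had 0 to 2 counts per library.

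LTBP1 and LTBP3, the latent TGF-beta binding proteins that bind all 3 TGF-betas, tether the inactive ligand complex to the matrix. In both lines LTBP1 rose and LTBP3 fell. LTBP1 had 776 and 733 CPM in HS578T controls and 1039 and 1022 CPM after depletion, and 39.1 and 38.7 CPM against 52.0 and 50.1 CPM in MDA-MB-231. It rose by 0.45 ± 0.04 (edgeR adjusted p = 3.38e-08) and 0.39 ± 0.06 (edgeR adjusted p = 3.63e-05). LTBP3 had 497 and 482 CPM in HS578T controls and 270 and 260 CPM after depletion. In MDA-MB-231 it had 30.7 and 31.4 CPM in controls and 25.1 and 25.4 CPM after depletion. The LTBP3 groups were apart in each line, widely so in HS578T. LTBP3 changed by -0.89 ± 0.04 (edgeR adjusted p = 1.35e-11) in HS578T and -0.30 ± 0.06 (edgeR adjusted p = 0.00125) in MDA-MB-231. On the TPM scale, LTBP1 and LTBP3 stood at 350 ± 14.8 and 258 ± 6.87 (SD, n = 2) in HS578T controls and at 461 ± 9.95 and 135 ± 4.96 after depletion. LTBP2 fell in HS578T from 128 and 124 CPM to 114 and 101 CPM (-0.23 ± 0.06, edgeR adjusted p = 0.00494). LTBP4, which binds TGF-beta 1 alone, had 48.2 and 49.0 CPM in MDA-MB-231 controls and 43.3 and 42.6 CPM after depletion. Its log2 change was -0.18 ± 0.06 (edgeR adjusted p = 0.0198), and leaving out any 1 of the 4 MDA-MB-231 libraries ended the call (-0.14 to -0.11). The call was also lost by DESeq2 (-0.14), with DESeq2's size factors in edgeR (-0.14) and by limma on log2(TPM + 1) (-0.17). With at least 5 CPM in 2 libraries it was lost too (-0.13).

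Of the secreted antagonists, FST, or follistatin, which traps activins, changed most. It had 14.5 and 14.1 CPM in HS578T controls and 4.76 and 6.18 CPM after depletion. In MDA-MB-231 it had 9.03 and 9.52 CPM in controls and 4.38 and 4.93 CPM after depletion. Each depleted library lay below every control of either line. FST changed by -1.38 ± 0.14 on the log2 scale (edgeR adjusted p = 6.48e-07) and -0.996 ± 0.146 (edgeR adjusted p = 4.59e-05). FSTL3, a follistatin-like protein that also binds activins, had 35.2 and 36.8 CPM in HS578T controls and 40.0 and 39.0 CPM after depletion, and 23.9 and 26.8 CPM against 28.8 and 29.7 CPM in MDA-MB-231. The log2 change was 0.13 ± 0.07 (edgeR adjusted p = 0.117) and 0.21 ± 0.07 (edgeR adjusted p = 0.0309). The second was lost without MDA-MB-231 control replicate 1 (0.18), MDA-MB-231 siGpx1 replicate 2 (0.23) or HS578T control replicate 2 (0.21), and was 0.34 without MDA-MB-231 control replicate 2, where it passed. DESeq2 also lost that call (0.24). FSTL1, a matrix glycoprotein of the same family, was the most abundant member in HS578T controls by TPM (847 ± 3.75) and rose by 0.13 ± 0.03 in HS578T (edgeR adjusted p = 0.00373) and 0.20 ± 0.04 in MDA-MB-231 (edgeR adjusted p = 0.000313). The HS578T call was lost without any 1 of the 4 MDA-MB-231 libraries (0.09 in each case). It was also lost with HS578T fitted alone (0.08), by limma on log2(TPM + 1) (0.08) and with at least 5 CPM in 2 libraries (0.08). NOG, or noggin, which traps BMPs, had 0 counts in all 4 HS578T libraries, and 24.6 and 28.7 CPM in MDA-MB-231 controls against 27.0 and 24.8 CPM after depletion, with overlapping groups. GREM1, another BMP trap, had at most 1 count in a library.

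BAMBI, a receptor-like membrane protein without a kinase domain that blocks receptor complexes, had 39.3 and 40.5 CPM in HS578T controls and 67.3 and 62.3 CPM after depletion. In MDA-MB-231 it had 10.9 and 10.1 CPM in controls and 17.1 and 17.9 CPM after depletion. All depleted libraries were above the controls of their line. BAMBI rose by 0.70 ± 0.06 (edgeR adjusted p = 1.36e-07) and 0.73 ± 0.09 (edgeR adjusted p = 9.35e-06). SMURF2, a ubiquitin ligase that removes receptors and SMADs, had 52.5 and 54.3 CPM in HS578T controls and 67.0 and 63.5 CPM after depletion, and 267 and 264 CPM against 386 and 398 CPM in MDA-MB-231. It rose by 0.29 ± 0.05 (edgeR adjusted p = 0.000229) and 0.56 ± 0.04 (edgeR adjusted p = 4.36e-09). Its paralog SMURF1 rose in MDA-MB-231 from 88.4 and 91.6 CPM to 101 and 102 CPM, by 0.17 ± 0.05 (edgeR adjusted p = 0.0108). PMEPA1, a TGF-beta-induced membrane protein that sequesters receptor SMADs, was lower in both lines. It had 71.5 and 71.2 CPM in HS578T controls and 63.9 and 53.6 CPM after depletion, and 122 and 129 CPM against 84.5 and 86.4 CPM in MDA-MB-231. The log2 change was -0.28 ± 0.07 (edgeR adjusted p = 0.00335), or -0.17 without HS578T siGpx1 replicate 2, and -0.56 ± 0.06 (edgeR adjusted p = 2.32e-06).

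The nuclear co-repressors changed little. SKI passed in neither line, with log2 changes of -0.07 ± 0.04 and -0.08 ± 0.04. Its relative SKIL had 42.2 and 41.9 CPM in MDA-MB-231 controls and 49.4 and 49.1 CPM after depletion, a log2 change of 0.23 ± 0.06 (edgeR adjusted p = 0.00781), against -0.05 ± 0.06 in HS578T. TGIF1, a homeodomain co-repressor of SMAD2 and SMAD3, rose in HS578T from 42.8 and 40.9 CPM to 51.5 and 53.1 CPM, by 0.32 ± 0.07 (edgeR adjusted p = 0.000681). In MDA-MB-231 its log2 change was 0.02 ± 0.06.

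Just inside the 1.5-fold limit stood ACVR1B in MDA-MB-231, at -0.59, and just outside it in that line stood ACVR2B at -0.57, SMAD1 at 0.56, SMURF2 at 0.56 and PMEPA1 at -0.56. BMPR1B missed the limit of 1 CPM with a mean of 0.994 over the MDA-MB-231 libraries.

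The effect of depletion differed between the lines for 17 of the 47 members (36.2%) by the interaction term of edgeR's test, against 17% of all genes. It was more positive in MDA-MB-231 for 6 (12.8%, against 6.32% of all genes) and more negative for 11 (23.4%, against 10.7%). The receptors held most of the second kind, with 7 more negative and 1 more positive of 12, while 1 of 8 SMADs passed. The 7 were TGFBR1, ACVR1B, BMPR1B, TGFBR2, ACVR2A, ACVR2B and TGFBR3. The call of BMPR1B was lost in 5 of 12 alternative settings and that of ACVR2B by DESeq2 (-0.75). That of ACVR1C, the receptor with the more positive effect, was lost by limma on log2(TPM + 1) (0.29). For the activin receptors ACVR1B, ACVR2A and ACVR2B the difference, MDA-MB-231 minus HS578T, was -0.91 ± 0.15, -0.86 ± 0.16 and -0.81 ± 0.16 (edgeR adjusted p = 0.000632, 0.00138 and 0.00299). For the TGF-beta receptors TGFBR2 and TGFBR3 it was -0.44 ± 0.06 and -0.63 ± 0.10 (edgeR adjusted p = 6.31e-05 and 0.000519). TGFBR1, higher in both lines, differed by -0.29 ± 0.09 (edgeR adjusted p = 0.0379), and that call was lost in 11 of 14 alternative settings, among them without HS578T control replicate 2 (-0.18) or siGpx1 replicate 2 (-0.26) and without each MDA-MB-231 library (-0.15 to -0.23). Among the ligands, TGFB1 and BMP4 had the more negative effect in MDA-MB-231 (-0.40 ± 0.06 and -0.77 ± 0.13) and TGFB2 the more positive (0.42 ± 0.08), with edgeR adjusted p = 0.000584, 0.000917 and 0.00213. The TGFB1 difference was -0.24 without MDA-MB-231 control replicate 2, where it passed. LTBP3 fell less in MDA-MB-231, with a difference of 0.59 ± 0.07 (edgeR adjusted p = 4.92e-05). The difference did not pass for SMAD7 (0.06 ± 0.10, edgeR adjusted p = 0.772) or BAMBI (0.04 ± 0.11, edgeR adjusted p = 0.901). The count of members with a more negative effect was 6 by DESeq2 and 7 without MDA-MB-231 control replicate 1, control replicate 2 or siGpx1 replicate 2. Of the calls among all genes, 37.1% were more positive in MDA-MB-231, and 55.6% with DESeq2's size factors, against 35.3% and 43.8% among the members.

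**Figure D3:**
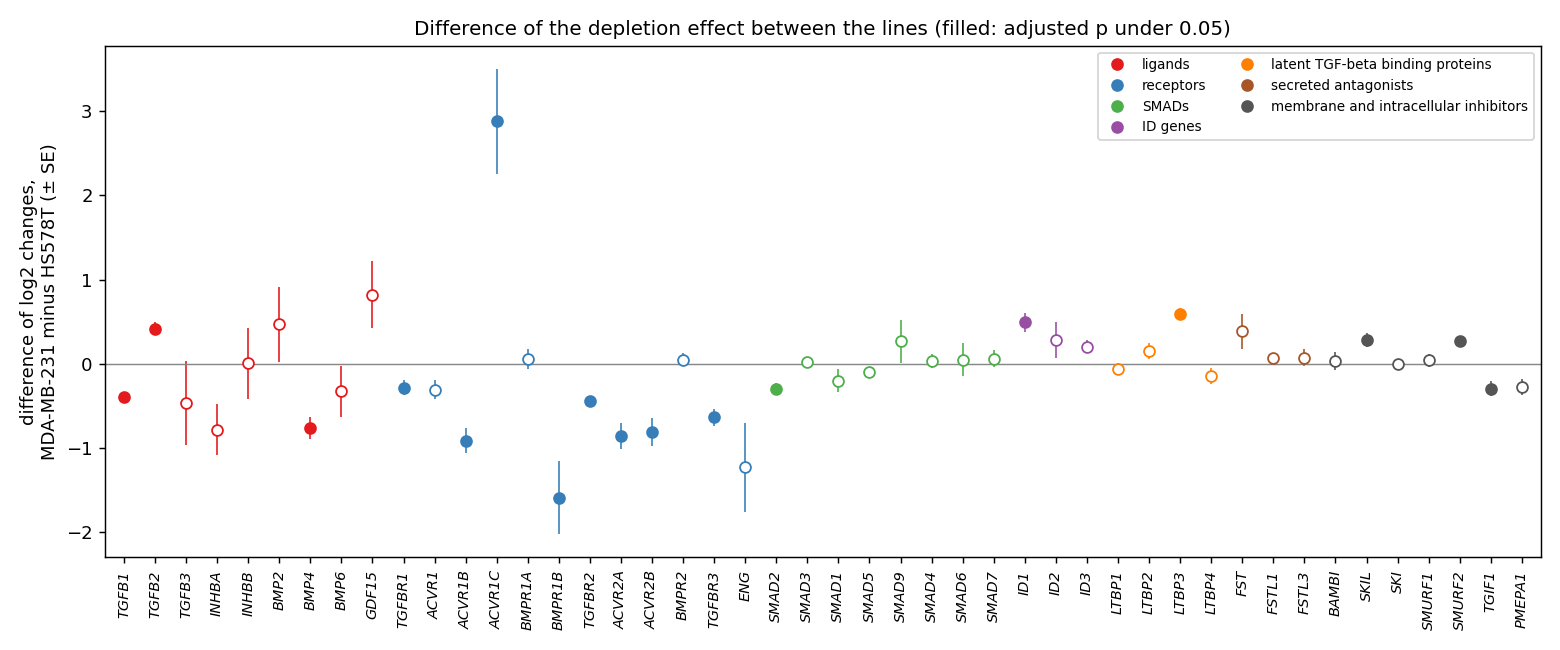
Difference of the log2 change after depletion, MDA-MB-231 minus HS578T (points, with standard errors as bars), for 46 members in order of role; filled points passed at an adjusted p under 0.05. The receptors from TGFBR1 to TGFBR3 lie mostly below 0, from -0.29 to -1.59 where filled, with ACVR1C at 2.88 as the exception, and the 8 SMADs lie between -0.30 and 0.27.

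In control cells the RNA levels of most members differed between the lines. Of the 47 members, 28 (59.6%) were lower and 15 (31.9%) higher in MDA-MB-231 than in HS578T controls, against 38.6% and 43% of all genes, and 13 members (27.7%) differed at least 4-fold, against 18.4% of all genes. The 13 include ENG and NOG, each of which passed the filter on low counts in 1 line alone. A gene that passes in 1 line alone is low in the other, so some difference between the lines is built in. The line and any difference in its handling cannot be told apart. On the TPM scale, which allows genes to be compared, the TGF-beta ligands were led by TGFB1 in HS578T (229 ± 2.12, SD, n = 2) and by TGFB2 and TGFB1 in MDA-MB-231 (73.4 ± 0.827 and 69.0 ± 3.40). The leading BMP ligand was BMP2 in HS578T (14.2 ± 1.12 TPM), with BMP4 at 6.50 ± 0.240, and BMP4 in MDA-MB-231 (321 ± 6.02), with BMP2 at 0.440 ± 0.226. INHBA stood at 26.3 ± 2.74 TPM in HS578T and 2.34 ± 0.297 in MDA-MB-231. Of the 12 receptors, TGFBR2 had the highest TPM in MDA-MB-231 (255 ± 7.30, against 113 ± 5.54 in HS578T), and ENG had the highest in HS578T (124 ± 1.27).

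Among the 13 members, BMP4 was higher in MDA-MB-231 controls with a log2 difference of 5.57 ± 0.07 (edgeR adjusted p = 7.58e-19), TGFBR1 by 2.47 ± 0.07 (edgeR adjusted p = 1.04e-14) and SMURF2 by 2.32 ± 0.04 (edgeR adjusted p = 1.73e-16). NOG, the BMP trap, was at least 231-fold higher in MDA-MB-231, with 816 counts against 0 and a floor of 3 counts over the HS578T control group. BMP4 and its antagonist NOG were therefore both high in MDA-MB-231 and both low or at 0 in HS578T. Lower in MDA-MB-231 were INHBA (-3.62 ± 0.16, edgeR adjusted p = 6.03e-12), BMP2 (-5.11 ± 0.21, edgeR adjusted p = 2.4e-12) and ID2 (-4.67 ± 0.11, edgeR adjusted p = 1.88e-15). ID3 (-2.19 ± 0.06, edgeR adjusted p = 6.53e-15) and SMAD9 (-2.45 ± 0.16, edgeR adjusted p = 6.77e-10) were lower as well, while ID1 was higher (1.72 ± 0.07, edgeR adjusted p = 4.2e-12). LTBP1 and LTBP3 differed by -4.28 ± 0.05 and -3.98 ± 0.04 (edgeR adjusted p = 3.38e-19 and 5.13e-19). ENG gave 4061 counts in HS578T controls and 13 in MDA-MB-231 controls, a ratio of 367 with a counting interval of 214 to 690. ACVR1C gave 150 and 3 counts, a ratio of 58.8 with an interval of 19.7 to 288. None of the 8 SMADs was higher in MDA-MB-231, and 7 were lower by edgeR's test, while SMAD6 passed in neither direction. The lower call of SMAD5 (-0.19 ± 0.04) was lost with limma on log2(TPM + 1), where it was -0.05.

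**Figure D4:**
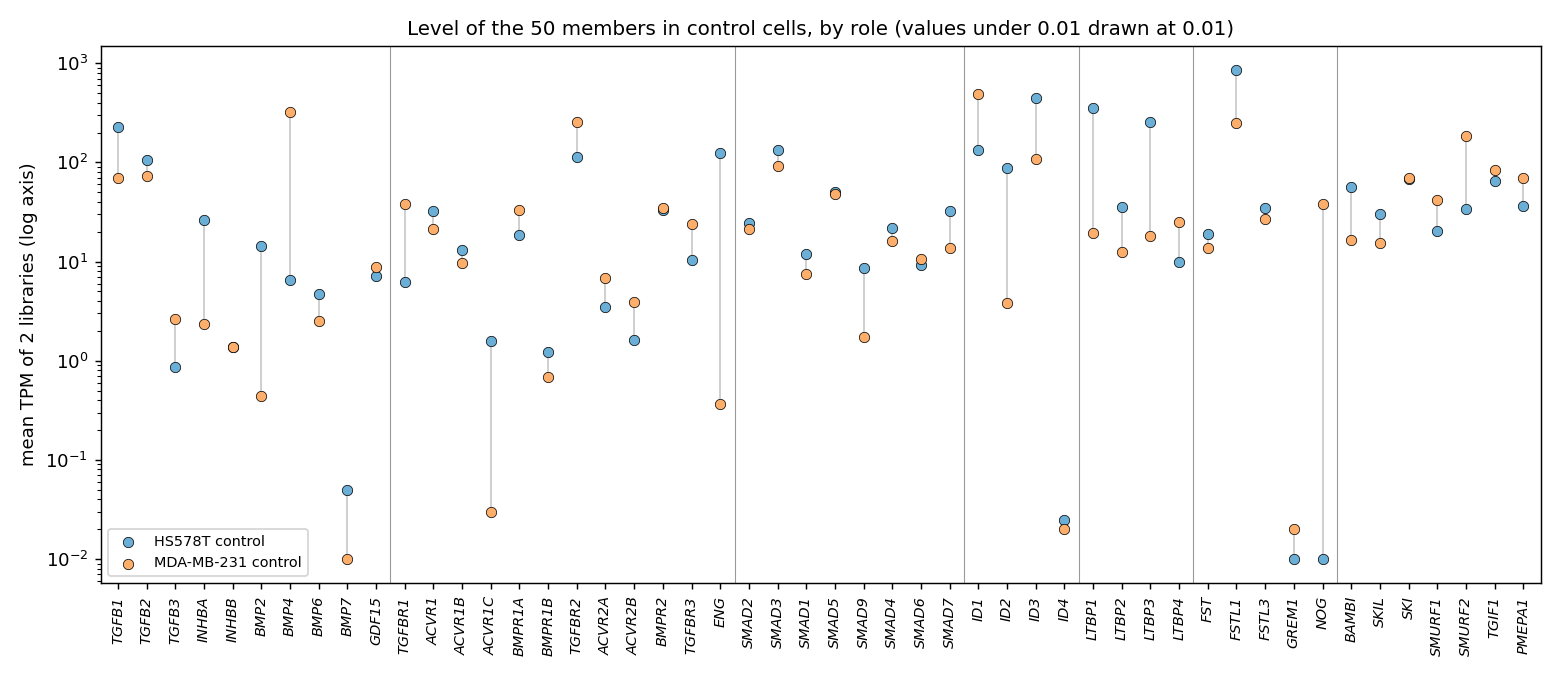
Mean TPM of 2 control libraries for the 50 members in HS578T (blue) and MDA-MB-231 (orange) on a log axis, grouped by role from ligands at the left to inhibitors at the right; values under 0.01 are drawn at 0.01. The longest gaps are those of NOG (0 against 38.1 TPM), ENG (124 against 0.365), ACVR1C, BMP4 and BMP2.

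Other parts of the pathway were read from lists of genes outside the members. Of 33 tested receptors and signal modulators, 19 (57.6%) rose and 5 (15.2%) fell in HS578T, against 28.6% and 22.1% of all genes, with a median log2 change of 0.20. In MDA-MB-231 12 (36.4%) rose and 10 (30.3%) fell, against 20.7% and 21.9%, with a median of 0.00. DAB2, an endocytic adaptor of TGF-beta receptors, had 108 and 111 CPM in HS578T controls and 270 and 261 CPM after depletion, and rose by 1.28 ± 0.04 (edgeR adjusted p = 2.53e-12). In MDA-MB-231 it rose by 0.24 ± 0.07 (edgeR adjusted p = 0.0073), and the difference between the lines was -1.04 ± 0.08 (edgeR adjusted p = 5.12e-07). STUB1, a chaperone-linked ubiquitin ligase that acts on SMAD proteins, fell alike in both lines. It had 62.7 and 57.2 CPM in HS578T controls and 30.8 and 33.9 CPM after depletion, and 60.0 and 57.0 CPM against 30.3 and 33.3 CPM in MDA-MB-231. The log2 changes were -0.89 ± 0.08 and -0.88 ± 0.07 (edgeR adjusted p = 9.26e-08 and 1.14e-07). TAB2, an adaptor of the kinase TAK1, fell by 0.61 ± 0.05 and 0.52 ± 0.05 (edgeR adjusted p = 1.47e-07 and 6.72e-07). CTDSP2, a phosphatase that acts on the SMAD linker, rose in HS578T by 0.62 ± 0.04 (edgeR adjusted p = 4.87e-09). RGMB, a BMP co-receptor, fell in MDA-MB-231 by 0.67 ± 0.06 (edgeR adjusted p = 1.71e-07) and PPP1R15A, a phosphatase subunit that SMAD7 recruits, by 0.51 ± 0.06 (edgeR adjusted p = 3.15e-06).

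Of the 43 other ligands and secreted regulators listed, 19 were tested. In HS578T 4 (21.1%) rose and 8 (42.1%) fell, against 28.6% and 22.1% of all genes, with a median log2 change of -0.38. In MDA-MB-231 2 (10.5%) rose and 5 (26.3%) fell, against 20.7% and 21.9%, with a median of -0.13. GDF6, a BMP-like ligand, had 113 and 111 CPM in HS578T controls and 44.5 and 38.4 CPM after depletion, a log2 change of -1.43 ± 0.07 (edgeR adjusted p = 1.07e-09), and 0 counts in every MDA-MB-231 library. TWSG1, a BMP-binding protein, fell in HS578T by 0.53 ± 0.04 (edgeR adjusted p = 5.03e-08). ITGAV, an integrin subunit that helps to release TGF-beta from its latent form, rose there by 0.50 ± 0.06 (edgeR adjusted p = 7.76e-06). NBL1, a BMP antagonist, was higher after depletion by 0.93 ± 0.06 in HS578T and 0.47 ± 0.09 in MDA-MB-231 (edgeR adjusted p = 7.34e-09 and 0.000327), but its reads can be shared with a read-through transcript listed separately, so its level is uncertain. In MDA-MB-231 GDF11 fell by 0.76 ± 0.11, BMPER, a secreted BMP regulator, by 1.02 ± 0.18 and HTRA1, a secreted protease, by 0.34 ± 0.06 (edgeR adjusted p = 3.22e-05, 0.000343 and 0.000184).

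Genes known to be induced by TGF-beta moved in both directions. Of 39 tested, 21 (53.8%) rose and 11 (28.2%) fell in HS578T, against 28.6% and 22.1% of all genes, with a median log2 change of 0.20. In MDA-MB-231 11 (28.2%) rose and 9 (23.1%) fell, against 20.7% and 21.9% of all genes, with a median of 0. ADAM19, a membrane metalloprotease, rose in HS578T by 0.62 ± 0.04 and CDH2, or N-cadherin, by 0.61 ± 0.05 (edgeR adjusted p = 1.29e-09 and 1.95e-08). In MDA-MB-231 HMGA2, a chromatin protein, rose by 1.25 ± 0.05 and NEDD9, a focal adhesion scaffold, by 1.04 ± 0.07 (edgeR adjusted p = 2.75e-11 and 7.42e-09). IL11, a cytokine known as a TGF-beta target in MDA-MB-231 cells that spread to bone, went the other way. It had 65.7 and 70.3 CPM in MDA-MB-231 controls and 6.81 and 6.14 CPM after depletion, a log2 change of -3.39 ± 0.10 (edgeR adjusted p = 1.27e-12). CDKN1A, the cell cycle inhibitor p21, fell in the same line by 0.79 ± 0.06 (edgeR adjusted p = 3.28e-08). VEGFA, the angiogenic factor, rose in HS578T by 0.91 ± 0.04 (edgeR adjusted p = 1.24e-11) and fell in MDA-MB-231 by 0.32 ± 0.04 (edgeR adjusted p = 6.34e-06), with a difference of -1.22 ± 0.05 (edgeR adjusted p = 2.47e-09). FN1, COL1A1, COL1A2 and ACTA2 stand in both this list and that of mesenchymal markers.

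Of 15 tested BMP-induced genes outside the members, 4 (26.7%) rose and 5 (33.3%) fell in HS578T, against 28.6% and 22.1% of all genes, with a median log2 change of -0.12. In MDA-MB-231 1 (6.67%) rose and 2 (13.3%) fell, against 20.7% and 21.9%, with a median of -0.13. RUNX2, a transcription factor of bone formation, had 36.0 and 34.3 CPM in HS578T controls and 93.8 and 85.4 CPM after depletion, and 61.8 and 59.8 CPM against 79.9 and 88.0 CPM in MDA-MB-231. Its log2 change was 1.35 ± 0.07 (edgeR adjusted p = 3.38e-10) and 0.46 ± 0.06 (edgeR adjusted p = 2.54e-05). ATOH8, a helix-loop-helix factor, fell in HS578T from 69.7 and 71.3 CPM to 36.8 and 33.9 CPM, and DLX2, a homeobox factor, from 12.7 and 11.4 CPM to 4.51 and 4.15 CPM. Their log2 changes were -0.997 ± 0.086 and -1.48 ± 0.18 (edgeR adjusted p = 1.08e-07 and 5.66e-06). TBX3, a T-box factor, rose there by 0.50 ± 0.05 (edgeR adjusted p = 5.46e-07). In MDA-MB-231 the calls of GATA3 (-0.37 ± 0.13) and SPRY1 (-0.35 ± 0.13) were lost in 7 and 6 of 15 alternative settings. GATA3 was not called without any 1 of the 4 MDA-MB-231 libraries, and SPRY1 without either control library or siGpx1 replicate 1, with log2 changes as small as -0.21 and -0.13.

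**Figure D5:**
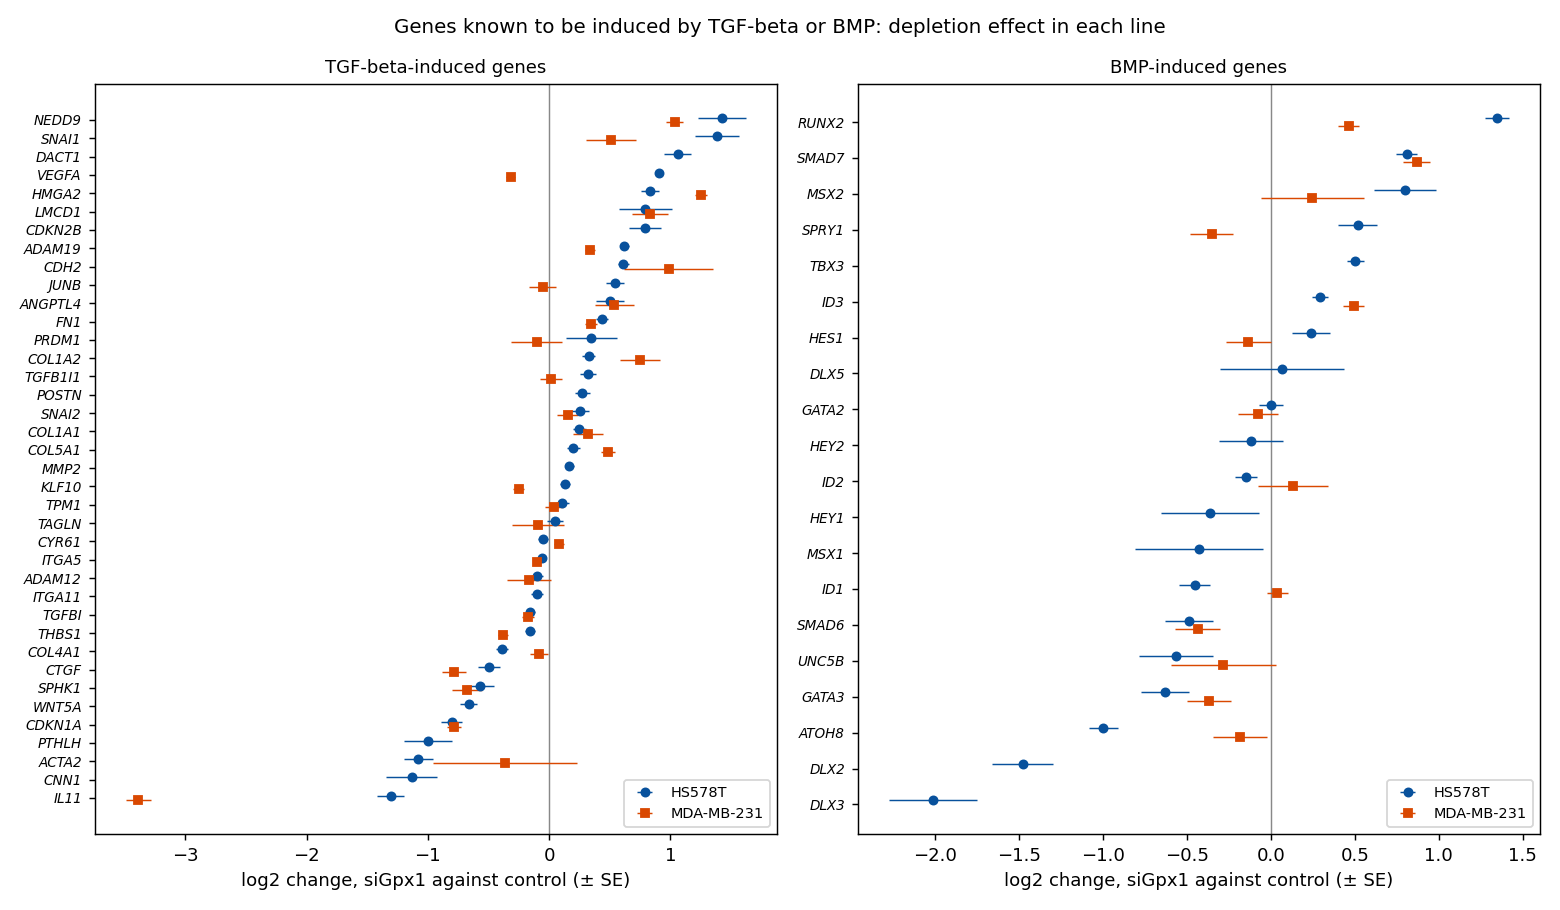
Log2 change after depletion (points, with standard errors as bars) of tested TGF-beta-induced genes (left) and BMP-induced genes (right, members of the pathway included) shown for each line where the mean over its 4 libraries reached 1 CPM, in HS578T (circles) and MDA-MB-231 (squares). HMGA2 and NEDD9 lie right of 0 and CDKN1A and IL11 left of it in both lines, with IL11 at -3.39 in MDA-MB-231, and VEGFA lies on opposite sides.

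Matches to short 3′ UTR sequences were listed for the members, because an earlier search of these data had picked GGGCATC and GGCATCA as the 7-base sequences that went most with lower expression after depletion, and ACTTCGA and TACTTCG as a pair that went with higher expression. The choice used these data, so the matches support nothing on their own, and their part in the members' changes was not tested. Members of each pair overlap by 6 bases, and only the transcript strand was searched. GGGCATC or GGCATCA occurred in 7 of 47 members with a searched 3′ UTR (14.9%), against 14.4% of 13095 tested genes, and ACTTCGA or TACTTCG in 3 of 47 (6.38%), against 2.79%. The 7 were TGFB1, ACVR1B, BMPR1B, ACVR2B, SMAD2, SMAD3 and FSTL3, and the 3 were TGFBR1, SMAD7 and SMAD2. For SMAD2 the 3′ UTR searched was 32870 bases long against a whole transcript of 10456 bases in the files, with the nearest match 9761 bases into it, so its matches may lie outside the transcript that was quantified. The sites of TGFBR1, SMAD7, ACVR1B and ACVR2B are shown as examples, from the genes above 5 CPM in the line where they changed. They were chosen after the values were seen, and each of these genes moved in the direction of its pair in MDA-MB-231. TGFB1, SMAD2 and FSTL3 were also called above 5 CPM and are not shown. The sites shown have 10 bases on either side and the match in capitals, from GENCODE 29 transcripts (GRCh38, while the files use hg19). They lie at chr9:99150963-99150989 (plus strand), chr18:48920279-48920306 (minus strand), chr12:51995118-51995145 (plus strand) and chr3:38487958-38487985 (plus strand, 1 of 3 sites in ACVR2B).
TGFBR1: ctgaggcaagACTTCGActttatagtg
SMAD7: actcgtatgaTACTTCGAcactgttctt
ACVR1B: gccagcccaaGGGCATCAtcctcagcag
ACVR2B: cccatttcagGGGCATCAgaccatacct
The genes with a match did not all go 1 way for either pair. Of those with the second pair, TGFBR1 and SMAD7 were higher after depletion in both lines, while SMAD2 fell in MDA-MB-231 (-0.28, edgeR adjusted p = 0.000188) and did not pass in HS578T (0.02, edgeR adjusted p = 0.804). Of those with the first pair, TGFB1 and ACVR1B rose in HS578T and fell in MDA-MB-231, and BMPR1B, ACVR2B and SMAD2 fell in MDA-MB-231. FSTL3 was called higher in MDA-MB-231, and SMAD3 passed in neither line. BMPR2, FST and LTBP3, lower in both lines, had no match in the 3′ UTR searched.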

How the data were processed

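RNA was sequenced in 8 libraries, 2 in each of 4 groups taken from the sample titles. The authors deposited expected counts, which are RSEM's estimates of reads per gene, and the TPM values, per the file headers, are the same estimates per effective length scaled to a fixed total. The submitters' processing notes name RSEM 1.2.12, hg19 and FastQC, and the aligner is not given in the sources used here. RSEM shares reads that fit several genes, so near-identical genes can be split, and strand is not stated.

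Expected counts were rounded, filtered with filterByExpr over the 4 groups (14249 genes kept), TMM-scaled and modelled over all 8 libraries with 1 mean per group (4 residual degrees of freedom, biological coefficient of variation 0.0342). Genes were called by edgeR's quasi-likelihood test at a Benjamini-Hochberg adjusted p under 0.05 over all tested genes. A standard error is the size of the log2 change divided by the root of its F value. Replicates of a group differed beyond sampling noise, by a chi-square of 1.35 to 3.91 per gene, so none was merged.

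The members and lists were chosen with earlier results of these data known. Library values are given for members called with a log2 change of at least 0.58 and a line mean of at least 1 CPM, and for smaller changes where a role is described. For the controls, members at least 4-fold apart are named if the higher line reached 5 CPM, and for each list up to 4 genes per line with the smallest p and at least 5 CPM. A gene that this rule names is not reported here, though the list counts include it. The lists held receptors and modulators, other ligands and regulators, TGF-beta-induced and BMP-induced genes, and marker genes. The alternatives were DESeq2's size factors in edgeR, DESeq2, no filter, 5 CPM in 2 libraries, the replicate number as a block, limma on log2(TPM + 1), each line alone, and each library left out. The pipeline was tested on simulated data. Promoter windows came from RefSeq (GRCh38.p14, 46 of 50 members matched by symbol) and 3′ UTRs of at least 30 bases from GENCODE 29, matched for 91.9% of tested genes. DESeq2 1.42.0, limma 3.58.1 and edgeR 4.0.16 ran in R 4.3.3, and matplotlib 3.10.9, numpy 2.4.6 and pandas 2.3.3 in Python 3.11.15.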

Additional observations from a re-analysis of the deposited data

Results flagged for a closer look

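For 17 members the effect of GPX1 depletion differed between the lines, by the interaction term of edgeR's quasi-likelihood test at a Benjamini-Hochberg adjusted p under 0.05. Values are the log2 change in MDA-MB-231 minus that in HS578T. Among the ligands the difference was -0.40 for TGFB1, 0.42 for TGFB2 and -0.77 for BMP4. Among the type I receptors it was -0.29 for TGFBR1, -0.91 for ACVR1B, 2.88 for ACVR1C and -1.59 for BMPR1B. Among the type II receptors and co-receptors it was -0.44 for TGFBR2, -0.86 for ACVR2A, -0.81 for ACVR2B and -0.63 for TGFBR3. It was -0.30 for SMAD2, 0.49 for ID1 and 0.59 for LTBP3. For the inhibitors it was 0.27 for SMURF2, 0.28 for SKIL and -0.30 for TGIF1.

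ACVR1C rests on 3 counts in the MDA-MB-231 controls. The BMPR1B difference did not pass without HS578T control replicate 2 (-1.49), MDA-MB-231 control replicate 1 (-1.48) or 2 (-1.51), or MDA-MB-231 siGpx1 replicate 2 (-1.22). Limma on log2(TPM + 1) lost the BMPR1B difference as well (-0.51). The SMAD2 difference did not pass without any 1 of the 4 MDA-MB-231 libraries (-0.22 to -0.19). DESeq2 (-0.24) and limma on log2(TPM + 1) (-0.23) did not call it either. The SKIL difference did not pass without HS578T control replicate 1 (0.26) or HS578T siGpx1 replicate 2 (0.24), and that of TGIF1 was lost in 12 of 14 settings. DESeq2 (0.34) and limma on log2(TPM + 1) (0.32) also lost the SKIL difference.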

How the results depend on the processing

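Of the calls among members, 21 of 29 in HS578T, 19 of 30 in MDA-MB-231, 10 of 17 for the interaction and 40 of 43 for the controls passed in every alternative setting run for them, and SKI in the controls changed sign with limma on log2(TPM + 1) (0.02, against -0.11). With DESeq2 the members lower in MDA-MB-231 numbered 9 in place of 14, and those with a more negative effect in MDA-MB-231 6 in place of 11. With 1 library left out these counts ranged from 8 to 14 and from 7 to 11. The same settings gave 17 to 20 members higher and 8 to 12 lower in HS578T, 14 to 17 higher in MDA-MB-231, 5 to 8 with a more positive effect in MDA-MB-231, and 14 to 15 higher and 27 to 28 lower in its controls. The share of interaction calls that were more positive was 67.9% over all genes with at least 5 CPM in 2 libraries, with 8 members either way. The median of all genes moved by 0.103 for the interaction with that filter, by 0.101 without MDA-MB-231 control replicate 2, and by 0.123 in the controls on the TPM scale. The cause was not tested.

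Deviations of same-numbered libraries correlated at -0.0467 in HS578T and 0.0513 in MDA-MB-231, so no shift shared by them was seen. With 2 libraries a group, this cannot tell whether same-numbered libraries were handled together. With the replicate number as a block, 20 members were higher and 10 lower in HS578T, 16 and 14 in MDA-MB-231, 6 and 11 for the interaction and 14 and 28 in the controls. With 2 libraries a group, members at a few CPM, such as INHBB, TGFB3 and BMPR1B, had standard errors of 0.24 to 0.40 within a line.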
